A study of Mus musculus with 12 samples.

Results

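The dependence of the tylosin effect on the gut microbiota was measured as an interaction, computed for each gene as the difference between SPF PAT and SPF control mice minus the difference between GF PAT and GF control mice. All 556 genes with values, of 556 in the table, were taken as members. The table listed 584 entries, and the other 28, which were control probes and reference genes, held no values. The mice were male C57BL/6 animals killed at week 7 of life, and RNA came from bulk terminal ileum. PAT mice had received a single early-life course of tylosin, a macrolide antibiotic, in drinking water from the fifth day of life, at an age when pups take it up through the mother. Control mice received water without antibiotic, and in this experiment the water of both colonization states was autoclaved. SPF mice carried a conventional microbiota free of specific pathogens, and GF mice carried none. Each of the 4 groups held 3 mice, namely SPF control mice 2, 7 and 8, SPF PAT mice 21, 26 and 27, GF control mice 37, 38 and 39, and GF PAT mice 41, 42 and 43. SPF litters were bred from purchased animals and GF litters from a colony kept by the study's institution, so that colonization and colony cannot be told apart. The litter of each mouse is not given in the sources used here, and p-values measure the spread between these mice.

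The ileum of a colonized mouse is in constant contact with microbes at its epithelium. Segmented filamentous bacteria and other adherent microbes are known to raise epithelial serum amyloid A and major histocompatibility complex (MHC) class II, intraepithelial cytotoxic T cells, IL-17-producing T helper cells and interferon-driven genes there, and GF mice are known for low levels of these. Absorptive enterocytes, in turn, make brush border transporters and peptidases, and they secrete CCL25, the chemokine that draws lymphocytes bearing CCR9 into the small intestine. A positive interaction means that the PAT effect was more positive in SPF than in GF mice, and a negative one that it was more negative.

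The NanoString mouse immunology panel counts reporter probes one molecule at a time, and values are log2 normalized counts. Total counts were 806043 to 923395 in the SPF control mice and 600308 to 681370 in the other 9 mice, a gap between groups whose part in the results was not tested beyond the scalings tried. Probes differ in efficiency, so levels are compared between mice and not between genes. All 6 of 6 ileal epithelial markers were measured, none was at a count of 0 in any mouse, and their summed level was 17.04 to 17.72 on the log2 scale over the 12 mice. The sum hides members that moved apart. The mean of Abcb1a was 12.23 in SPF control and 15.05 in GF control mice, and that of Pigr 15.81 and 15.05. Abcb1a, Mme, Dpp4 and Ccl25 are themselves among the positive genes below, so the sum does not show that epithelial markers were level between groups. Markers of B cells and lymphoid follicles, of which 11 of 12 were measured with none at 0, differed between mice of the same group. Their summed level was 12.88, 13.05 and 10.41 in SPF control mice 2, 7 and 8, and 12.78, 9.97 and 9.92 in SPF PAT mice 21, 26 and 27. It was 12.07, 10.35 and 9.98 in GF control mice 37, 38 and 39, and 12.78, 12.10 and 11.27 in GF PAT mice 41, 42 and 43. SPF control mouse 8 was thus low in a group that was otherwise high, and SPF PAT mouse 21 and GF control mouse 37 were high in groups that were otherwise low. T cell markers, of which 9 of 10 were measured with none at 0, ran from 10.39 to 11.10 in SPF control, 8.86 to 10.43 in SPF PAT, 8.69 to 9.92 in GF control and 9.22 to 10.21 in GF PAT mice. In bulk tissue, fewer cells of a type and less RNA per cell cannot be told apart.

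**Figure D1:**
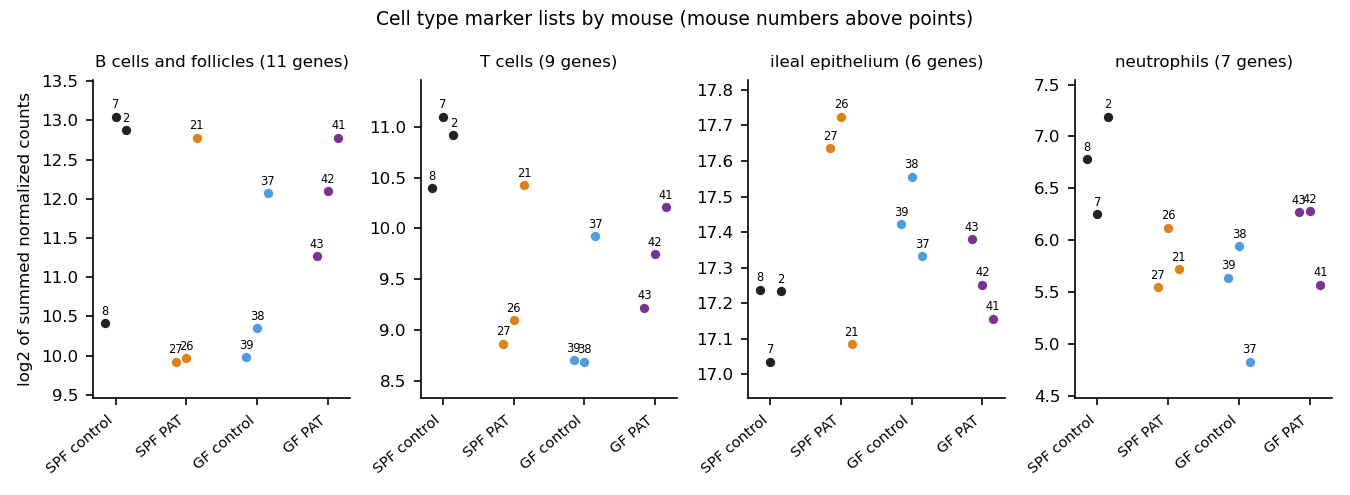
Summed level of 4 cell type marker lists in each of the 12 mice, on the y axis as the log2 of summed normalized counts, with the mouse number above each point and the groups on the x axis. SPF control mouse 8 lay low, and SPF PAT mouse 21 and GF control mouse 37 high, in the panel of B cell and follicle markers. The sum of the epithelial markers lay between 17.04 and 17.72, though single members moved in opposite directions.

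In limma, 95 of 556 genes (17.1%) had an interaction past the threshold, an adjusted p under 0.05. The interaction was positive for 55 genes (9.89%) and negative for 40 (7.19%). The median interaction was -1.78 among the negative genes and 0.88 among the positive ones. Of the 95 genes, 88 had effects of opposite sign, and for 91 the SPF effect was the larger in size. The interaction is the SPF effect minus the GF effect, so selecting genes on it favours opposite signs. The count of 88 therefore describes the 95 genes and is no evidence of an effect in GF mice. Among the 40 negative genes the median SPF effect was -1.35 and the median GF effect 0.36, and among the 55 positive genes these were 0.69 and -0.19. The SPF effect was past its own threshold for 86 of the 95 genes, against 146 of all 556 (26.3%). No gene was past the threshold for the GF effect (0%) in limma, where 28 genes had an unadjusted p under 0.05 and no adjusted p was lower than 0.121. With limma's voom on recovered counts, 2 genes were past it.

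Read by group, the same 95 genes mostly set the SPF control mice apart from the other 9. For 81 of them (85.3%) the 3 SPF control values all lay above or all below the range of the other 9 mice, compared with 175 of 556 genes overall (31.5%). The difference between SPF and GF mice had a median size of 0.98 among control mice and 0.12 among PAT mice. Over all genes these medians were 0.63 and 0.21. Of the 95, 92 were past the threshold for SPF control minus GF control mice, against 234 of 556 (42.1%), and 3 for SPF PAT minus GF PAT mice, against 8 of 556 (1.44%). These 3 were Saa1_2, Abcb1a and Bst1. The interaction is the difference between these gaps, so they describe the 95 genes and do not test them.

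**Figure D2:**
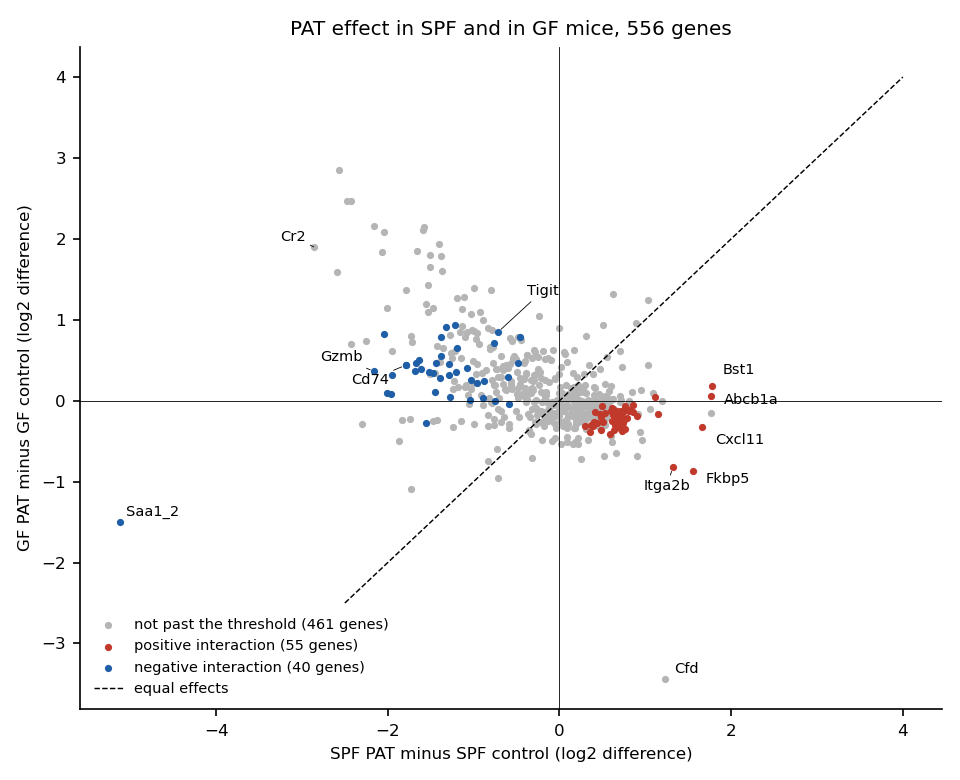
PAT effect of each of 556 genes in SPF mice (x axis) against that in GF mice (y axis), both as log2 differences of group means, with the dashed line marking equal effects. The 40 genes with a negative interaction lie left of the vertical line, the 55 with a positive one lie right of it, and on the y axis the 95 lie between -1.50 (Saa1_2) and 0.93 (Irf4). Cr2 (GF effect 1.90) and Cfd (-3.44) lie outside that range without passing the test.

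Scaling moved the balance of directions. Centring each mouse on its median raised the median interaction of all genes from 0.0052 to 0.55, quantile normalization raised it to 0.20, and scaling to the total count without the 10 most abundant genes lowered it to -0.14. With median centring 60 positive and 19 negative genes were past the threshold, so that 75.9% were positive in place of 57.9%. The same 55 and 40 genes then had median interactions of 1.43 and -1.23, so that the order of the sizes also turned. With the mean of the 11 measured B cell and follicle markers as a covariate (the B cell and follicle covariate) the balance moved the other way, to 19 positive and 31 negative genes. The summed level of these markers had group means of 12.11 in SPF control, 10.89 in SPF PAT, 10.80 in GF control and 12.05 in GF PAT mice. The markers thus differed between groups along the tested contrast, and the covariate can take up part of it. Fits with the covariate, here and below, therefore cannot tell marker content and PAT effect apart. Negative genes were the more numerous without SPF PAT mouse 27 (15 positive and 20 negative), 26 (23 and 27) or 21 (98 and 119), without SPF control mouse 7 (22 and 29) or 2 (20 and 25), without GF PAT mouse 42 (20 and 25) or 41 (15 and 22) and without GF control mouse 38 (20 and 27). Each of the 95 genes kept its sign under these scalings and under voom.

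The serum amyloid A genes carried the largest PAT effect in SPF mice. The probe Saa1_2 reads the acute phase genes Saa1 and Saa2, which enterocytes of the ileum secrete in response to adherent bacteria. Its level was 14.54, 13.57 and 14.75 in SPF control, 8.16, 10.35 and 8.98 in SPF PAT, 8.15, 7.81 and 7.77 in GF control and 6.71, 5.95 and 6.58 in GF PAT mice. The 3 SPF control mice lay far above all others, the lowest SPF PAT mouse was level with the highest GF mouse, and within GF mice the PAT values lay below the control values without overlap. The PAT effect was -5.12 in SPF mice and -1.50 in GF mice, an interaction of -3.62 (SE 0.72, adjusted p = 0.015). Saa1_2 was therefore 1 of 7 genes among the 95 whose effects shared a sign. It also kept a gap between PAT mice of 2.75 (adjusted p = 0.0352), against 6.38 between control mice. Saa3, a related acute phase gene made more by macrophages and epithelium under bacterial stimulation, had an SPF effect of -1.44, a GF effect of 0.47 and an interaction of -1.91 (SE 0.50, adjusted p = 0.0315). Saa3 missed the threshold under median centring and quantile normalization, with the covariate (adjusted p = 0.0721) and without 6 of the 12 mice. Of the 12 acute phase and epithelial defence genes measured, these 2 were past the threshold (16.7%, near the 17.1% of all genes), and the list's median was -0.16, which turned to 0.38 under median centring and 0.15 under quantile normalization. Pigr, the epithelial receptor that carries IgA into the lumen, was at 15.82, 15.58 and 16.04 in SPF control, 14.64, 15.67 and 15.35 in SPF PAT, 14.93, 15.08 and 15.12 in GF control and 14.64, 14.60 and 14.87 in GF PAT mice. SPF PAT mouse 26 lay among the SPF control mice, and SPF PAT mice 21 and 27 lay below them. The interaction of Pigr was -0.25 (SE 0.34, adjusted p = 0.588) and became 0.29 with median centring and 0.067 with quantile normalization.

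Each cytotoxic lymphocyte gene past the threshold had a negative interaction. Gzmb, the granule protease granzyme B, was at 8.22, 8.15 and 8.78 in SPF control, 6.58, 6.15 and 5.94 in SPF PAT, 4.93, 5.08 and 4.70 in GF control and 5.51, 4.85 and 5.42 in GF PAT mice. Levels ran in 3 steps, from SPF control through SPF PAT to GF mice, and the SPF control and SPF PAT values did not overlap with each other or with those of GF mice. The SPF effect was -2.16, the GF effect 0.36 and the interaction -2.52 (SE 0.35, adjusted p = 0.00467). Ccl5, a chemokine stored by cytotoxic T cells, was at 10.89, 11.19 and 10.93 in SPF control, 9.50, 9.07 and 8.55 in SPF PAT, 8.56, 7.94 and 7.90 in GF control and 8.64, 7.77 and 8.24 in GF PAT mice. Again every SPF control mouse lay above every other mouse, and the interaction was -2.05 (SE 0.42, adjusted p = 0.0153). Gzma, a second granule protease, had an interaction of -2.11 (SE 0.50, adjusted p = 0.0238). Cd7, a surface protein of T and NK cells, had one of -1.56 (SE 0.31, adjusted p = 0.0148). Fasl, the death ligand of cytotoxic cells, had one of -1.17 (SE 0.34, adjusted p = 0.0417) at low counts. Counts per mouse, here and below, are recovered whole counts that are not normalized and stand in rising order. Those of Fasl were 35, 44 and 46 in SPF control, 14, 16 and 18 in SPF PAT, 8, 17 and 20 in GF control and 17, 17 and 18 in GF PAT mice. Fasl missed the threshold under median centring and quantile normalization and with the B cell and follicle covariate (adjusted p = 0.0703). It stayed past the threshold without 4 of the 12 mice. Gzmb, Ccl5, Gzma, Cd7 and Fasl were the 5 members past the threshold among 26 cytotoxic granule and NK receptor genes (19.2%, near the share of all genes). All were negative, and the list median was -0.61. Gzmb, Ccl5 and Cd7 stayed past the threshold without each mouse in turn and with the B cell and follicle covariate. The number of members past the threshold ran from 3, without SPF PAT mouse 27, SPF control mouse 2 or GF PAT mouse 41, up to 11, without mouse 21 of the SPF PAT group, 1 mouse being left out of each fit.

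The T cell receptor complex followed. Cd8a, the co-receptor of cytotoxic T cells, was at 7.87, 8.01 and 7.87 in SPF control, 6.78, 6.05 and 5.55 in SPF PAT, 6.35, 5.76 and 5.28 in GF control and 6.58, 6.10 and 6.01 in GF PAT mice. The SPF control mice, between 7.87 and 8.01, lay above all other mice, and SPF PAT mice overlapped with both GF groups. PAT lowered Cd8a by 1.79 in SPF mice (adjusted p = 0.00545), against a GF effect of 0.44, and the interaction was -2.22 (SE 0.48, adjusted p = 0.0167). Cd3d and Cd247, signalling chains of the receptor, had interactions of -2.16 (adjusted p = 0.0417) and -2.23 (adjusted p = 0.036). Zap70, the kinase that binds them, had one of -1.73 (SE 0.43, adjusted p = 0.0276). In all, 4 of 18 genes of the T cell receptor list were past the threshold (22.2%, against 17.1% of all genes), 4 negative and 0 positive, and the list's median was -1.78 beside 0.0052 for all genes. With the B cell and follicle covariate, Cd8a alone of the 4 remained past it, and the list's median was -0.59. The count of 4 ran from 1, without SPF PAT mouse 26 or 27, SPF control mouse 2 or 7, GF PAT mouse 41 or 42 or GF control mouse 38, up to 11, without mouse 21 of the SPF PAT group. Cd4, the co-receptor of helper T cells, had an SPF effect of -0.71, a GF effect of 0.031 and an interaction of -0.74 (SE 0.43, adjusted p = 0.204), and Ptprc, the pan-leukocyte marker CD45, one of -1.49 (SE 0.69, adjusted p = 0.139). Irf4, a transcription factor of activated lymphocytes and plasma cells, was at 8.40, 8.45 and 8.43 in SPF control, 7.27, 7.17 and 7.18 in SPF PAT, 6.65, 5.55 and 5.75 in GF control and 7.23, 6.75 and 6.77 in GF PAT mice. The SPF control and SPF PAT values each lay close together, and the GF PAT mice lay above the GF control mice without overlap. Its interaction of -2.15 (SE 0.36, adjusted p = 0.00972) came from a fall of 1.22 in SPF mice and a GF effect of 0.93 (adjusted p = 0.411), which passed its threshold without GF control mouse 37 (1.26, adjusted p = 0.0176).

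MHC class II genes held the highest share of members past the threshold, 5 of 10 (50%, against 17.1% of all genes), all negative. The list's median was -2.10, and it was -1.07 with the B cell and follicle covariate. H2-Aa, the alpha chain of the I-A molecule that presents peptides to helper T cells, was at 14.74, 15.04 and 15.04 in SPF control, 13.77, 13.08 and 12.92 in SPF PAT, 13.28, 12.52 and 12.87 in GF control and 13.59, 13.19 and 13.00 in GF PAT mice. The lowest SPF control mouse, at 14.74, exceeded the highest other mouse, SPF PAT mouse 21, at 13.77. Its SPF effect was -1.68, its GF effect 0.37 and its interaction -2.05 (SE 0.38, adjusted p = 0.012), and between PAT mice the SPF and GF means differed by -0.00051. Cd74, the invariant chain that guards the peptide groove, was at 15.53, 15.67 and 15.68 in SPF control, 14.54, 13.62 and 13.34 in SPF PAT, 13.85, 13.00 and 13.40 in GF control and 14.21, 13.82 and 13.53 in GF PAT mice. The same order was seen, with SPF PAT mouse 21 the highest outside the SPF control group. Its interaction was -2.23 (SE 0.45, adjusted p = 0.0153). H2-Ab1, the beta chain of I-A, had an interaction of -2.02 (SE 0.41, adjusted p = 0.0153), and H2-DMa, which loads peptides, one of -2.14 (SE 0.47, adjusted p = 0.0187). H2-Eb1, the beta chain of I-E, which lies outside the naming rule and was named after its values were seen, had one of -1.60 (SE 0.38, adjusted p = 0.0228). H2-Aa, H2-Ab1 and Cd74 stayed past the threshold without each mouse, and these with H2-DMa stayed past it with the covariate. Under quantile normalization Cd74 missed it, and the list held 4 negative and 1 positive member past the threshold. The count of 5 ran from 3, without GF PAT mouse 41, up to 7, without mouse 21 of the SPF PAT group. B cells also make MHC class II, and their markers, given above, differed between mice of a group.

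In the MHC class I pathway 2 of 14 genes (14.3%, below the share of all genes) were past the threshold, both negative and both parts of the machinery that makes and moves peptides. Tap1, a subunit of the peptide transporter, was at 10.47, 10.68 and 10.82 in SPF control, 9.49, 9.09 and 8.96 in SPF PAT, 9.09, 8.69 and 8.58 in GF control and 9.38, 8.89 and 9.13 in GF PAT mice. SPF control mice lay at least at 10.47, and no other mouse was above 9.49. The interaction of Tap1 was -1.82 (SE 0.28, adjusted p = 0.00924). Psmb9, the immunoproteasome subunit encoded beside it, had an SPF effect of -1.27, a GF effect of 0.046 and an interaction of -1.32 (SE 0.22, adjusted p = 0.00972), which missed the threshold under median centring. The other 12 members were not past the threshold, and the list's median was 0.30, of the opposite sign to these 2 genes.

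Promoters of the negative genes were read because MHC class II promoters share the Y box, an inverted CCAAT element bound by NF-Y, and because interferon-driven genes share response elements. RefSeq promoter windows of GRCm38.p6, from 250 bases before to 50 after the start, were found for 411 of the panel's genes. These genes had 499 windows, and a gene counts as holding a motif where any of its windows does. Shares of all promoters are per window. The Y box was searched as CTGATTGG on both strands, and 4.1% of all 32841 promoters in the table and 3.81% of the panel's windows held it. It lay in 8 of 31 negative genes with a window (25.8%), in 1 of 41 positive genes (2.44%) and in 9 of 339 genes not past the threshold (2.65%). Of 6 MHC class II genes with a window, 2 held these letters (H2-Aa and H2-Eb1) and the others did not. The 8 negative genes were H2-Aa, H2-Eb1, Tap1, Psmb9, Cxcl9, Cxcl10, Irf8 and Gzma, and the positive one was Casp2. H2-Aa, Tap1, Psmb9 and Cxcl10 stayed past the threshold without each mouse in turn. Gzma stayed past it without 7 of the 12 mice, H2-Eb1 and Irf8 without 6, Casp2 without 4 and Cxcl9 without 1. Cxcl9, Irf8, Psmb9 and Casp2 missed it under median centring, and Cxcl9, Cxcl10 and Casp2 under quantile normalization, so the shares rest partly on unstable calls. The windows of Tap1 and Psmb9 overlap by 275 bases on opposite strands and share a single box, so the 8 matches are not independent. The interferon response element, searched as 2 GAAA motifs with any 2 bases between them on either strand, lay in 5 of 31 negative, 4 of 41 positive and 24 of 339 other genes. It lay in 3.44% of all promoters and 6.61% of the panel's windows. The GAS element of interferon gamma response, searched as TTCNNNGAA on both strands, lay in 3 of 31, 3 of 41 and 56 of 339. The share was 8.3% of all promoters and 12.6% of the panel's windows. A match is a run of letters and not a measured binding site. The 5 windows below show the box in MHC class II genes, in the shared Tap1 and Psmb9 promoter and in 2 chemokine genes, with capitals marking the Y box (CCAATCAG on the other strand) and, in Cxcl10, also the interferon response element. H2-Aa lies at chr17:34287774-34288073 on the minus strand, H2-Eb1 at chr17:34305617-34305916 on the plus strand, Tap1 at chr17:34187306-34187605 on the plus strand, Cxcl9 at chr5:92328030-92328329 on the minus strand and Cxcl10 at chr5:92348840-92349139 on the minus strand.
H2-Aa: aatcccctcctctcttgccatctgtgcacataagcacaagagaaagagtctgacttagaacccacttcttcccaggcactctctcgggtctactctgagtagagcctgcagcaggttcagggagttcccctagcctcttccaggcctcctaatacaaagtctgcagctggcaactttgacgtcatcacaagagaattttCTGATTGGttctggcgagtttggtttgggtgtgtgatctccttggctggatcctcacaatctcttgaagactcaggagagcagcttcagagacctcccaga
H2-Eb1: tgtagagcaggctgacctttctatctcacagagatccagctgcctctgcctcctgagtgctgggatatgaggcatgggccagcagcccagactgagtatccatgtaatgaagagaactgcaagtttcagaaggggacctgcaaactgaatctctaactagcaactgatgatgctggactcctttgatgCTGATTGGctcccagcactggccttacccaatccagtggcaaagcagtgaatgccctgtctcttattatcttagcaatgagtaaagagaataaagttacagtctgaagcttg
Tap1: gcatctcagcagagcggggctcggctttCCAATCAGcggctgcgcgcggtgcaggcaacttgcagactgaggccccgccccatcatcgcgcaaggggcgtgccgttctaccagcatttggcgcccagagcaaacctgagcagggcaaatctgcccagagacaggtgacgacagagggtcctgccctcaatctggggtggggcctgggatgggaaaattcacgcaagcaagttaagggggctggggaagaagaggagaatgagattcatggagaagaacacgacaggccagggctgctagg
Cxcl9: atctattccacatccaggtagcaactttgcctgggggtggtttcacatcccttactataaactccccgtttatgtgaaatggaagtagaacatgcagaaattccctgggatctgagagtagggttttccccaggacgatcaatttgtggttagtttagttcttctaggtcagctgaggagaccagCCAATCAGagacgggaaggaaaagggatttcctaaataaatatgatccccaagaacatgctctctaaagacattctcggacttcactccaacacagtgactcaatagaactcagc
Cxcl10: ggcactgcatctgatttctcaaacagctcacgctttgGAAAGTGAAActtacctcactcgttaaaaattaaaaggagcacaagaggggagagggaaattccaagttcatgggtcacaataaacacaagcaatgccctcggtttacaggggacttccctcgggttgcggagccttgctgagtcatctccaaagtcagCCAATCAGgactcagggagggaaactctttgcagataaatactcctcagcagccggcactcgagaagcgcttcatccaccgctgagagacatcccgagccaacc

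Interferon-stimulated genes moved in both directions. Of 29 measured, 7 were negative and 3 positive past the threshold (34.5%, against 17.1% of all genes). The balance turned to 4 positive and 1 negative under median centring and was 3 positive and 4 negative under quantile normalization. The list's median of -0.44 turned to 0.11 under median centring and 0.012 under quantile normalization. Cxcl10, a chemokine induced by interferon gamma that attracts activated T cells, was at 6.71, 6.76 and 6.97 in SPF control, 5.61, 5.73 and 5.51 in SPF PAT, 5.38, 5.36 and 5.88 in GF control and 6.07, 6.42 and 6.10 in GF PAT mice. SPF control mice were highest, GF PAT mice came next without overlap with either GF control or SPF PAT mice, and the latter 2 groups overlapped. The SPF effect was -1.20, the GF effect 0.66 and the interaction -1.85 (SE 0.24, adjusted p = 0.00467). The transcript of Cxcl11, a gene of the same chemokine family, went the other way. It was at 3.92, 4.72 and 4.73 in SPF control, 5.67, 6.24 and 6.45 in SPF PAT, 6.17, 6.55 and 6.72 in GF control and 6.48, 5.87 and 6.10 in GF PAT mice. Protein was not measured here. Here the SPF control mice lay below every other mouse, and the interaction was 1.99 (SE 0.41, adjusted p = 0.0153). Socs1, a feedback inhibitor of cytokine receptors, had an interaction of -1.48 (SE 0.28, adjusted p = 0.0136), and Irgm1, an interferon-induced GTPase of autophagy, one of -0.93 (SE 0.20, adjusted p = 0.0167). Cxcl10 missed the threshold under quantile normalization, Irgm1 under median centring and Socs1 under both. The count of 10 ran from 5, without SPF PAT mouse 27 or GF PAT mouse 41, up to 14, without mouse 21 of the SPF PAT group. Further members past the threshold, named after their values were seen, were Cxcl9 (-1.28), Tmem173 (-0.75) and Irf8 (-0.55) among the negative and the receptor chains Ifngr1 (0.99) and Ifngr2 (0.89) among the positive. The ligand Ifng itself had counts of 7, 9 and 11 in SPF control, 4, 7 and 8 in SPF PAT, 6, 7 and 7 in GF control and 3, 7 and 14 in GF PAT mice, too few to place it, and an interaction of -0.026 (SE 0.65, adjusted p = 0.985).

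**Figure D3:**
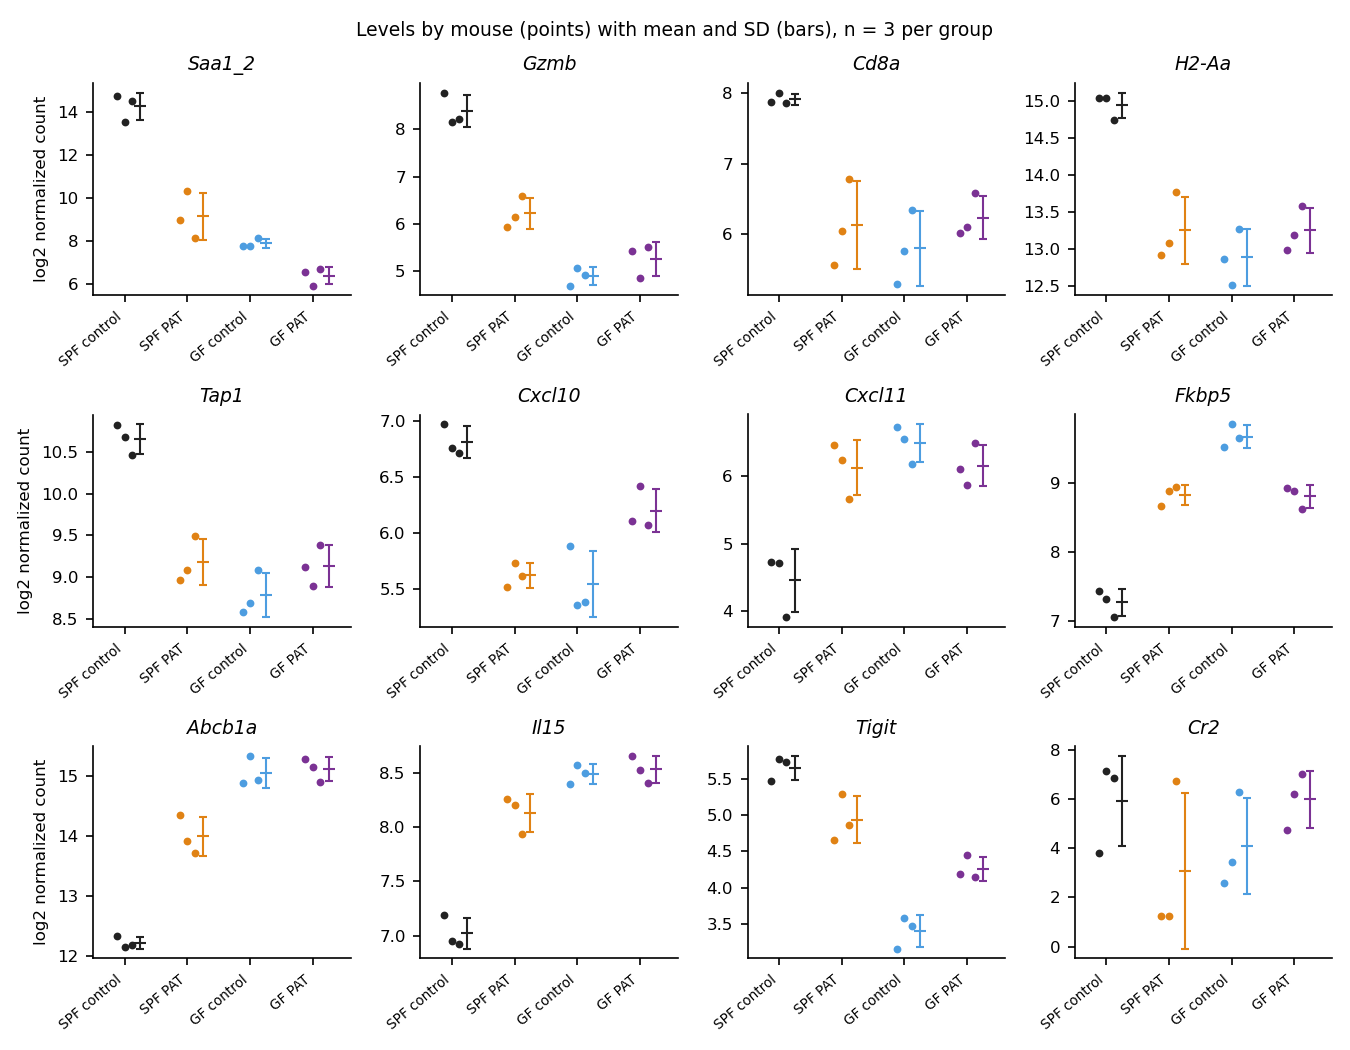
Levels of 12 genes in each of the 12 mice as log2 normalized counts (y axes, each with its own range), with a point per mouse and a bar for the group mean and SD of 3 mice. SPF control mice stand apart from the other 9 in the panels of Saa1_2, Gzmb, Cd8a, H2-Aa, Tap1, Cxcl10, Cxcl11, Fkbp5, Abcb1a and Il15, while Cr2 spreads over several log2 units within SPF control, SPF PAT and GF control mice.

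Chemokines were found in both directions. Of 26 measured, 5 were negative and 3 positive past the threshold (30.8%, against 17.1% of all genes). This balance turned to 5 positive and 3 negative under median centring and to 3 positive and 2 negative under quantile normalization. The list's median of -0.68 turned to 0.098 under quantile normalization. The count of 8 ran from 5, without SPF PAT mouse 26 or 27, SPF control mouse 7, GF PAT mouse 41 or 42 or GF control mouse 38, up to 11, without mouse 21 of the SPF PAT group. Beside Ccl5, Cxcl10, Cxcl9 and Cxcl11, Ccl8, a monocyte and T cell attractant of tissue macrophages, was at 8.36, 8.12 and 8.87 in SPF control, 6.81, 6.56 and 6.12 in SPF PAT, 6.17, 5.52 and 6.24 in GF control and 6.24, 6.08 and 6.56 in GF PAT mice. All 3 SPF control mice exceeded the other 9, and the interaction was -2.27 (SE 0.39, adjusted p = 0.00972). Ccl25, the chemokine of small intestinal enterocytes, was at 13.32, 13.40 and 13.64 in SPF control, 14.04, 14.32 and 14.38 in SPF PAT, 14.42, 14.68 and 14.51 in GF control and 14.25, 14.30 and 14.40 in GF PAT mice. The SPF control mice were lowest, GF control mice were highest, and the values of both PAT groups overlapped, with an interaction of 1.01 (SE 0.19, adjusted p = 0.0136). Its receptor Ccr9, which homes lymphocytes to the small intestine, went in the other direction, with an SPF effect of -1.03, a GF effect of 0.26 and an interaction of -1.29 (SE 0.29, adjusted p = 0.0187). Cxcr6, a receptor of tissue-resident lymphocytes, had one of -1.12 (SE 0.29, adjusted p = 0.0307). These were the 2 of 22 chemokine receptors past the threshold (9.09%, below the share of all genes), and the list's median was -0.83. Both missed the threshold under median centring and quantile normalization, and the count ran from 0, without GF PAT mouse 41, up to 6, without mouse 21 of the SPF PAT group. The remaining 2 chemokines, named after their values were seen, were Ccl22 (-1.68), which attracts regulatory T cells, and Cx3cl1 (0.78), a membrane-bound chemokine.

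Among 20 co-stimulatory and co-inhibitory receptors 3 were negative and 1 positive past the threshold (20%, against 17.1% of all genes), and the list's median was -0.99. Under median centring 1 was negative and 2 positive, and under quantile normalization 1 was negative. Cd274, the inhibitory ligand PD-L1, was at 7.46, 7.67 and 7.25 in SPF control, 6.35, 5.70 and 5.76 in SPF PAT, 6.02, 5.91 and 5.97 in GF control and 6.41, 6.24 and 6.33 in GF PAT mice. SPF control mice lay above the rest and the GF groups did not overlap, the PAT values being higher. The interaction of Cd274 was -1.88 (SE 0.25, adjusted p = 0.00467). Tigit, an inhibitory receptor of T and NK cells, was at 5.72, 5.77 and 5.46 in SPF control, 4.87, 5.28 and 4.66 in SPF PAT, 3.48, 3.59 and 3.17 in GF control and 4.15, 4.45 and 4.19 in GF PAT mice. It fell by 0.72 in SPF mice (adjusted p = 0.0217), and its GF effect of 0.85 (adjusted p = 0.326) exceeded it in size, giving an interaction of -1.56 (SE 0.26, adjusted p = 0.00972) that missed the threshold under median centring (-1.02) and quantile normalization (-0.80). Lilrb4, an inhibitory receptor of myeloid cells, had one of -0.95 (SE 0.22, adjusted p = 0.0208) that also missed the threshold under both scalings, and Btnl1, an epithelial butyrophilin-like protein that sustains intraepithelial gamma delta T cells, one of 0.90 (SE 0.24, adjusted p = 0.0321). The count of 4 ran from 2, without SPF PAT mouse 27, up to 11, without mouse 21 of the SPF PAT group.

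Among the positive genes, the steepest was Fkbp5, a co-chaperone induced by glucocorticoids. It was at 7.06, 7.33 and 7.44 in SPF control, 8.95, 8.88 and 8.67 in SPF PAT, 9.65, 9.86 and 9.53 in GF control and 8.62, 8.88 and 8.94 in GF PAT mice. SPF control mice were lowest, GF control mice highest, and both PAT groups met between them at means of 8.84 and 8.81. The SPF effect was 1.56, the GF effect -0.87 (adjusted p = 0.121) and the interaction 2.42 (SE 0.21, adjusted p = 0.000372), the smallest p of the 556 genes. With voom the GF effect of Fkbp5 was -0.75 (adjusted p = 0.0273), past the threshold. The other 3 glucocorticoid and circadian genes measured were not past it for the interaction, and the list's median was 0.37.

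Epithelial transporters and ectoenzymes were the family with the highest positive median, 0.82. In this family 4 of 9 genes were past the threshold (44.4%, against 17.1% of all genes), all positive. The interaction was above 0 for 9 of 9 members, the lowest being 0.012, and for 278 of all 556 genes. The median was 0.68 under total count scaling without the 10 most abundant genes and 1.37 under median centring. The count of 4 was 2 with the B cell and follicle covariate. It ran from 1, without SPF PAT mouse 27, GF PAT mouse 41 or GF control mouse 38, up to 6, without mouse 21 of the SPF PAT group. Abcb1a, the P-glycoprotein that pumps drugs and toxins back into the lumen, was at 12.20, 12.15 and 12.34 in SPF control, 13.72, 13.91 and 14.35 in SPF PAT, 14.92, 15.34 and 14.88 in GF control and 14.89, 15.15 and 15.28 in GF PAT mice. The 3 groups other than SPF control lay above it in 2 steps, SPF PAT below both GF groups without overlap. The SPF effect was 1.76, the GF effect 0.06 and the interaction 1.70 (SE 0.27, adjusted p = 0.00939), and the gap between SPF and GF mice of -2.82 among control mice was -1.11 among PAT mice (adjusted p = 0.0264). Mme, the brush border peptidase neprilysin, had an SPF effect of 1.14, a GF effect of -0.16 and an interaction of 1.31 (SE 0.30, adjusted p = 0.0208). Dpp4, a brush border dipeptidase, had an interaction of 0.82 (SE 0.22, adjusted p = 0.0322). Bst1, the ectoenzyme CD157, differed from the rest of the family in its pattern, at 8.59, 8.80 and 9.04 in SPF control, 10.76, 10.35 and 10.65 in SPF PAT, 9.48, 9.03 and 8.60 in GF control and 9.18, 9.64 and 8.84 in GF PAT mice. The SPF PAT mice stood apart and not the SPF control mice, which overlapped with both GF groups. Its interaction was 1.60 (SE 0.37, adjusted p = 0.0225), with a gap between SPF and GF mice of -0.23 among control and 1.37 among PAT mice (adjusted p = 0.0352). Abcb1a stayed past the threshold without each mouse, Mme and Bst1 without 8 of the 12 and Dpp4 without 5.

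Positive genes past the threshold also stood among cytokines, complement and cytokine receptors. Il15, the cytokine that maintains intraepithelial lymphocytes and NK cells, was at 6.93, 6.95 and 7.19 in SPF control, 7.93, 8.21 and 8.26 in SPF PAT, 8.49, 8.58 and 8.40 in GF control and 8.41, 8.53 and 8.66 in GF PAT mice. Every SPF control mouse lay below every other mouse, SPF PAT mice lay below all GF mice, and the interaction was 1.07 (SE 0.18, adjusted p = 0.0103). It was 1 of 2 interleukins past the threshold among 33 (6.06%, below the 17.1% of all genes). The median of the interleukins, -0.16, turned to 0.39 under median centring and 0.17 under quantile normalization. Cfb, factor B of the alternative complement pathway, had an SPF effect of 0.90, a GF effect of -0.19 and an interaction of 1.09 (SE 0.19, adjusted p = 0.0107). It was the 1 of 30 complement genes past the threshold (3.33%, below the share of all genes), and that list's median was 0.16. Among 30 interleukin receptors 5 were positive and 2 negative (23.3%, against 17.1% of all genes). The count of 7 receptors ran from 1, without SPF PAT mouse 27 or GF PAT mouse 42, up to 13, without mouse 21 of the SPF PAT group. Among them were Sigirr, a decoy-like inhibitor of IL-1 and Toll-like receptor signalling (interaction 1.03, SE 0.20, adjusted p = 0.0136), and Il18rap, a chain of the IL-18 receptor (interaction -1.55, SE 0.36, adjusted p = 0.0227), the latter lost under median centring and quantile normalization. Il1rl2, the IL-36 receptor, had an interaction of 1.10 (SE 0.33, adjusted p = 0.0475) and Il6ra, the IL-6 receptor, one of 0.85 (SE 0.21, adjusted p = 0.0276). Il1rl2 stayed past the threshold without 2 of the 12 mice and Il6ra without 4. Il1rl2 also missed it under quantile normalization and under total count scaling without the 10 most abundant genes. The median of the interleukin receptors was 0.055 and turned to -0.087 under total count scaling without the 10 most abundant genes and to -0.031 under voom.

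Growth factor and signalling genes past the threshold were mostly positive with all 12 mice. In the TGF-beta pathway 4 of 9 were past the threshold (44.4%, against 17.1% of all genes), all positive, with a median of 0.80. The count was 2 with the covariate. It ran from 2, without SPF PAT mouse 26 or 27, SPF control mouse 2 or 7, GF PAT mouse 41 or 42 or GF control mouse 38 or 39, up to 6, without mouse 21 of the SPF PAT group. Ski, a repressor of SMAD transcription, was at 8.79, 8.76 and 8.90 in SPF control, 9.43, 9.66 and 9.66 in SPF PAT, 9.47, 9.77 and 9.63 in GF control and 9.51, 9.40 and 9.67 in GF PAT mice. SPF control mice were lowest without overlap, and the other 3 groups shared one range, with an interaction of 0.86 (SE 0.18, adjusted p = 0.0153). Smad5 and Smad3, which carry BMP and TGF-beta signals, had interactions of 0.90 (adjusted p = 0.0169) and 0.83 (adjusted p = 0.0315), and Tgfbi, a matrix protein induced by TGF-beta, one of 0.82 (SE 0.23, adjusted p = 0.0396). Ski and Smad5 stayed past the threshold without each mouse, Smad3 and Tgfbi without 4 of the 12. Tgfbi also missed it under quantile normalization. Among 40 NF-kB, MAPK and JAK-STAT signalling genes 8 were positive and 2 negative (25%, against 17.1% of all genes), Socs1 being among the latter. With the covariate 1 was positive and 3 negative. The count of 10 ran from 3, without SPF PAT mouse 26 or 27, SPF control mouse 2 or 7 or GF PAT mouse 41 or 42, up to 22, without mouse 21 of the SPF PAT group, and each of the fits with 3 held 1 positive and 2 negative genes. Relb, the subunit of the non-canonical NF-kB pathway, had the interaction 0.94 (SE 0.20, adjusted p = 0.0167), and Prkcd, protein kinase C delta, 0.88 (SE 0.21, adjusted p = 0.0225). That list's median was 0.39.

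Toll-like receptor genes gave 4 positive members past the threshold of 20 (20%, against 17.1% of all genes) and a median of 0.36. With the covariate, and without any of 7 mice, 1 member was past it. Besides Sigirr these were Tlr5, the receptor for flagellin, Irak4, the kinase at the receptor, and Myd88, its adaptor. Tlr5 had an SPF effect of 0.71, a GF effect of -0.27 and an interaction of 0.98 (SE 0.26, adjusted p = 0.0307). For Irak4 the SPF effect of 0.36 and the GF effect of -0.39 both missed their own thresholds, and the interaction was 0.75 (SE 0.20, adjusted p = 0.0337). Myd88 had an SPF effect of 0.30, a GF effect of -0.31 and an interaction of 0.61 (SE 0.19, adjusted p = 0.0498). The interaction of Myd88 stayed past the threshold without 3 of the 12 mice. It missed it under median centring and with the covariate (adjusted p = 0.143). With Tigit and Il12rb1, Irak4 and Myd88 were the 4 of 95 genes whose GF effect was larger in size than the SPF effect. Il12rb1, a chain of the IL-12 and IL-23 receptors, had counts of 20, 31 and 31 in SPF control, 11, 14 and 20 in SPF PAT, 9, 11 and 12 in GF control and 19, 20 and 20 in GF PAT mice and an interaction of -1.26 (SE 0.31, adjusted p = 0.0275). On the normalized log2 scale SPF control mouse 2, at 4.07, lay below the GF PAT mice, at 4.22 to 4.35. The GF PAT counts of Il12rb1 all exceeded the GF control counts, yet none of these 4 GF effects was past its threshold in limma.

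Caspases and apoptosis regulators gave 4 positive members and 1 negative, Fasl, of 16 (31.2%, against 17.1% of all genes), with a median of 0.58. Without 1 mouse the count of 5 ran from 1, without SPF PAT mouse 27, SPF control mouse 2 or 7 or GF PAT mouse 41 or 42, up to 8, without mouse 21 of the SPF PAT group. Cul9, a cullin that binds p53 in the cytoplasm, had an SPF effect of 0.86, a GF effect of -0.058 and an interaction of 0.91 (SE 0.16, adjusted p = 0.0107). Casp2, an initiator caspase, had one of 0.67 (SE 0.19, adjusted p = 0.0412) and Bcl2, the survival factor, one of 0.82 (SE 0.24, adjusted p = 0.0417). Casp2 and Bcl2 each stayed past the threshold without 4 of the 12 mice. Casp2 missed it under median centring and quantile normalization. Bcl2 missed it under voom and under total count scaling without the 10 most abundant genes. Of 27 adhesion and endothelial molecules 5 were past the threshold (18.5%, near the share of all genes), all positive, with a median of 0.29 and a count of 2, without SPF PAT mouse 26 or 27, SPF control mouse 2 or 7, GF PAT mouse 41 or 42 or GF control mouse 38, up to 12, without mouse 21 of the SPF PAT group. Cd99, a protein of leukocyte passage through endothelium, had an interaction of 1.0 (SE 0.21, adjusted p = 0.0153), the tetraspanin Cd9 one of 1.0 (SE 0.26, adjusted p = 0.0305), and Pdgfrb, the receptor of pericytes and fibroblasts, one of 1.11 (SE 0.28, adjusted p = 0.0305). Itga2b, the integrin chain of platelets and megakaryocytes, was counted at 9, 14 and 19 in SPF control, 20, 20 and 39 in SPF PAT, 20, 26 and 26 in GF control and 11, 16 and 17 in GF PAT mice, and its interaction was 2.14 (SE 0.38, adjusted p = 0.0103) at a mean of 19.9 normalized counts. In this gene the SPF PAT counts all exceeded the SPF control counts, and the GF PAT counts all lay below the GF control counts.

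Other low-count genes past the threshold were S100a8, S100a9 and Il17a. S100a8, a subunit of the neutrophil protein calprotectin, was counted at 21, 29 and 44 in SPF control, 4, 5 and 8 in SPF PAT, 4, 9 and 10 in GF control and 9, 12 and 23 in GF PAT mice, with an interaction of -2.87 (SE 0.73, adjusted p = 0.0294). S100a9, its partner, was counted at 29, 35 and 65 in SPF control, 8, 9 and 12 in SPF PAT, 4, 7 and 8 in GF control and 6, 10 and 12 in GF PAT mice, with an interaction of -2.13 (SE 0.59, adjusted p = 0.0391). SPF control counts of both exceeded all SPF PAT and GF control counts, while GF PAT counts of S100a8 reached 23. These were the 2 of 12 neutrophil genes past the threshold (16.7%, near the 17.1% of all genes), and the list's median was -0.55. Neither stayed past it without each mouse, and both missed it under median centring and quantile normalization. Markers of neutrophils, of which 7 of 7 were measured, summed to 6.25 to 7.19 in SPF control, 5.55 to 6.12 in SPF PAT, 4.83 to 5.94 in GF control and 5.57 to 6.28 in GF PAT mice, with 1 member at 0 in SPF control mouse 7 and 2 in GF control mouse 37. Their part in other results was not tested.

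Il17a, the effector cytokine of Th17 cells, was counted at 22, 25 and 26 in SPF control, 7, 7 and 7 in SPF PAT, 4, 5 and 10 in GF control and 6, 8 and 16 in GF PAT mice. All SPF control counts lay at 22 or above and no other mouse exceeded 16. PAT lowered it by 1.38 in SPF mice, the GF effect was 0.55 and the interaction -1.92 (SE 0.51, adjusted p = 0.0322), which missed the threshold under median centring and quantile normalization and without 8 of the 12 mice. Of 21 Th17 and ILC3 genes, Il17a was negative and Maf, a transcription factor of IL-10-producing T cells (interaction 0.92, SE 0.21, adjusted p = 0.0224), and Kit, the stem cell factor receptor of mast cells and innate lymphoid cells (interaction 1.03, SE 0.21, adjusted p = 0.0153), were positive. The members past the threshold made up 14.3% of this list, below the 17.1% of all genes. The list's median of -0.19 turned to 0.35 under median centring. Among 23 lineage transcription factors, Irf4 was negative and Maf and Zbtb7b, the factor of CD4 lineage choice (interaction 0.81, SE 0.23, adjusted p = 0.0417), were positive. That share was 13%, also below that of all genes. Zbtb7b stayed past the threshold without 3 of the 12 mice and missed it under quantile normalization. The median of the lineage factors was -0.14, and it was 0.41 under median centring and 0.083 under quantile normalization. Foxp3, the factor of regulatory T cells, was counted at 7, 15 and 21 in SPF control, 6, 7 and 10 in SPF PAT, 6, 10 and 13 in GF control and 11, 14 and 20 in GF PAT mice, with an interaction of -0.94 (SE 0.54, adjusted p = 0.198).

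B cell and follicle genes had the median farthest from 0 of the 28 lists, and it was the one list with no member past the threshold. The median interaction of 23 genes was -2.96, from a median SPF effect of -1.55 and a median GF effect of 1.28, and the median SE was 1.63. In limma 0 of 23 were past the threshold, 6 had an unadjusted p under 0.05, and 1, Cd24a, was past the threshold with voom. Cr2, a complement receptor of B cells and follicular dendritic cells that was named after its values were seen, was at 6.86, 7.15 and 3.82 in SPF control, 6.73, 1.24 and 1.26 in SPF PAT, 6.29, 3.44 and 2.58 in GF control and 7.05, 6.22 and 4.74 in GF PAT mice. High and low mice occurred in 3 of the 4 groups, in the same mice as for the summed markers. Its interaction was -4.76 (SE 2.26, adjusted p = 0.144). Without SPF PAT mouse 21, 15 of the 23 were negative and 1 positive past the threshold, with a median of -4.19. Leaving out SPF control mouse 8 gave 3 negative members and leaving out GF control mouse 37 gave 1, and without each of the other 9 mice there was none. Cd24a, a surface glycoprotein that epithelium also makes and the member with the smallest p, had an interaction of 0.46 (SE 0.15, adjusted p = 0.055).

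**Figure D4:**
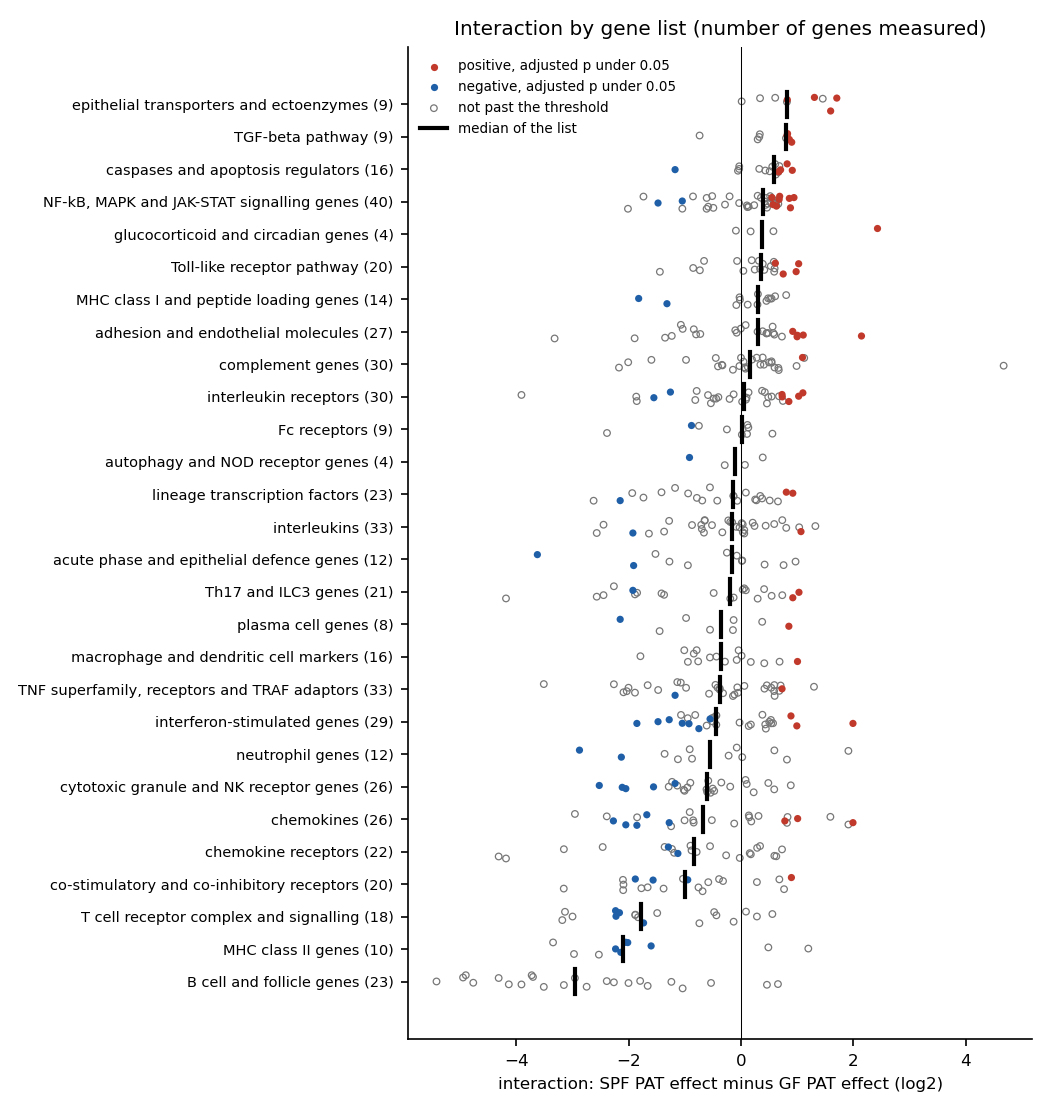
Interaction of each measured gene in log2 units (x axis) by gene list (y axis, with the number of genes measured), where filled points are past the threshold, open points are not, and black bars mark the median of a list. The order runs from B cell and follicle genes at a median of -2.96, all open points, through MHC class II and T cell receptor genes to TGF-beta and epithelial transporter genes at medians of 0.80 and 0.82.

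The remaining lists held 1 or 2 members past the threshold each. These were 25% of the plasma cell list and of the autophagy and NOD receptor list, against 17.1% of all genes. They were 11.1% of Fc receptors, 6.25% of macrophage and dendritic cell markers and 6.06% of TNF superfamily, receptor and TRAF genes. Plasma cell genes had Irf4 negative and Il6ra positive of 8, with a median of -0.35 that was 0.20 under median centring and 0.10 under quantile normalization. Macrophage and dendritic cell markers had 1 of 16, the lectin Clec4a4 (interaction 1.0, SE 0.24, adjusted p = 0.0271), and a median of -0.36 that was 0.18 and 0.14 under these scalings. TNF superfamily, receptor and TRAF genes had Fasl negative and Traf4, a TRAF adaptor of epithelium (interaction 0.73, SE 0.21, adjusted p = 0.0396), positive of 33, with a median of -0.38 that was 0.17 under median centring. Traf4 stayed past the threshold without 4 of the 12 mice and missed it under total count scaling without the 10 most abundant genes. Fc receptors had 1 of 9, the inhibitory IgG receptor Fcgr2b (interaction -0.89, SE 0.25, adjusted p = 0.0412), and a median of 0.015 that was -0.13 under total count scaling without the 10 most abundant genes and -0.072 under voom. Fcgr2b stayed past the threshold without 3 of the 12 mice and missed it under median centring and voom. Autophagy and NOD receptor genes had Irgm1 of 4, with a median of -0.11 that was 0.43 under median centring and 0.33 under quantile normalization. Of the 95 genes, 86 belonged to at least 1 of 28 lists, and a gene may be counted in several. The 9 in none were Cd3eap, Abcf1, Igf2r, Gm10499, Cd164, Ube2l3, Atm, App and Tagap, also named after their values were seen.

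How many genes passed depended on single mice. Between 35 and 217 genes were past the threshold when 1 of the 12 mice was left out. Of the 95, 33 remained past it in all 12 of these fits, 15 positive and 18 negative, and 26 of these also under each of the 4 scalings. The positive ones were Fkbp5, Cxcl11, Abcb1a, Cfb, Il15, Kit, Sigirr, Cul9, Ski, Smad5, Itga2b, Cd99, Ccl25, Relb and Abcf1. The negative ones included Saa1_2, Gzmb, Ccl8, Cd74, Cd8a, Irf4, Tigit, Cd7, Ccl5, Cd274, H2-Aa, H2-Ab1, Tap1, Psmb9, Cxcl10, Socs1 and Irgm1. Without SPF PAT mouse 27, 35 of the 95 remained past the threshold, without GF PAT mouse 41 36, without SPF control mouse 2 44, without GF PAT mouse 42 45, without GF control mouse 38 47, without SPF control mouse 7 49, without SPF PAT mouse 26 50 and without GF control mouse 39 55. Each of these fits drops the mouse named and leaves its group with 2. With the B cell and follicle covariate 50 genes were past the threshold, 40 of them among the 95.

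**Figure D5:**
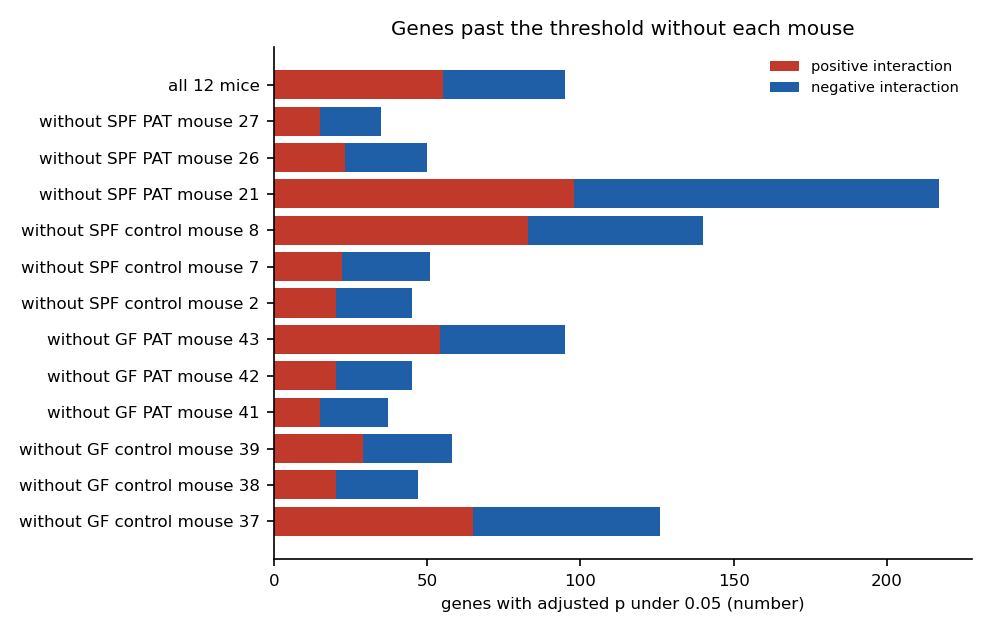
Number of genes with an interaction past the threshold (x axis) with all 12 mice and without each mouse in turn (y axis), split into positive and negative interactions. The count was 95 with all mice, lowest at 35 without SPF PAT mouse 27 and highest at 217 without SPF PAT mouse 21.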

How the data were processed

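RNA of terminal ileum from 12 mice was hybridized to a NanoString nCounter mouse immunology panel, an assay without reads or a genome build. The deposited values are log2 normalized counts, which the authors normalized using DESeq2 (version not given in the sources used here). Whole counts, needed for voom, were recovered from them within 0.01. The 14 reference genes, 8 negative and 6 positive control entries hold no values, so background was not estimated. Interactions and both PAT effects were fitted with limma 3.58.1 (lmFit and eBayes, statmod 1.5.0, R 4.3.3) with 1 mean per group, no covariate and no filter, and adjusted by Benjamini-Hochberg over 556 genes with a threshold of 0.05. The steps were tested on simulated data with the same dispersion setting for every gene, changes in SPF PAT mice only and mice drawn independently. That test therefore does not cover the dependence on single mice seen here. The members, lists and tests were chosen with earlier results of these data known, and no test of a list was made. A direction or count over a list is a description.

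Named genes were, among genes past the threshold with a mean of at least 20 normalized counts, the 10 with the largest positive and the 10 with the largest negative interaction, every gene whose GF effect was larger in size than its SPF effect, up to 4 members per list past the threshold in order of p, the member with the smallest p in a list with none, and the genes of products the study measured (Cd4, Cd8a, Ptprc, Foxp3, Ifng, Il17a and Pigr). Low-count genes are given with recovered whole counts in rising order, before division by the size factor of each mouse. Size factors were 1.19 to 1.25 in SPF control mice and 0.83 to 1.07 in the other mice. Alternatives were an unmoderated model, an intensity trend, robust eBayes, Benjamini-Yekutieli adjustment, a minimum mean count of 20, median centring, quantile normalization, total count without the 10 most abundant genes, voom, log2 of the normalized count plus 1, the B cell and follicle mean as a covariate, an absolute difference of at least 1, and leaving out each mouse. Symbols were matched to RefSeq GRCm38.p6: 537 are current, 16 older and 3 unmatched. Results of a few genes are not reported here, though counts over all genes and lists include them.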

Additional observations from a re-analysis of the deposited data

Results flagged for a closer look

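By the interaction test itself, 95 genes had a PAT effect in SPF mice unlike that in GF mice, and those named by rule and reported here are listed by their interaction on the log2 scale. Positive values were Fkbp5 2.42, Cxcl11 1.99, Abcb1a 1.70, Bst1 1.60, Mme 1.31, Pdgfrb 1.11, Il1rl2 1.10, Cfb 1.09, Il15 1.07, Kit 1.03, Irak4 0.75, Myd88 0.61, Dpp4 0.82, Btnl1 0.90, Maf 0.92, Zbtb7b 0.81, Il6ra 0.85, Sigirr 1.03, Tlr5 0.98, Cul9 0.91, Casp2 0.67, Bcl2 0.82, Clec4a4 1.0, Ski 0.86, Smad5 0.90, Smad3 0.83, Tgfbi 0.82, Itga2b 2.14, Cd99 1.0, Cd9 1.0, Ccl25 1.01, Traf4 0.73, Relb 0.94 and Prkcd 0.88. Negative values were Saa1_2 -3.62, Gzmb -2.52, Ccl8 -2.27, Cd74 -2.23, Cd247 -2.23, Cd8a -2.22, Cd3d -2.16, Irf4 -2.15, H2-DMa -2.14, Gzma -2.11, Tigit -1.56, Il12rb1 -1.26, Saa3 -1.91, Cd7 -1.56, Ccl5 -2.05, Zap70 -1.73, Cd274 -1.88, Lilrb4 -0.95, Il17a -1.92, H2-Aa -2.05, H2-Ab1 -2.02, Tap1 -1.82, Psmb9 -1.32, Cxcl10 -1.85, Socs1 -1.48, Irgm1 -0.93, Fasl -1.17, S100a8 -2.87, S100a9 -2.13, Fcgr2b -0.89, Ccr9 -1.29, Cxcr6 -1.12 and Il18rap -1.55. With 3 mice a group, no test for a single mouse far from the others was made, and no values lay outside the measurement used.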

How the results depend on the processing

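With alternatives to the variance model, the zeros, the filter and the scaling, 69 to 133 genes were past the interaction threshold, within 1.5 times 95. The count was 143 with voom, 50 with the B cell and follicle mean as a covariate, 50 with an absolute difference of at least 1 required, and 4 with Benjamini-Yekutieli adjustment (Cd274, Cxcl10, Fkbp5 and Gzmb). Leaving out 1 mouse gave 35 to 217, the lowest with SPF PAT mouse 27 and the highest with SPF PAT mouse 21 left out, and the count was also more than 1.5 times lower without SPF PAT mouse 26 (50), SPF control mice 2 (45) and 7 (51), GF PAT mice 41 (37) and 42 (45) and GF control mice 38 (47) and 39 (58). The SPF effect, 146 genes, gave 41 with Benjamini-Yekutieli adjustment, 55 with a difference of at least 1 and 64 (without SPF control mouse 2) to 232 (without SPF PAT mouse 21) without 1 mouse, with 73, 89 and 75 without SPF PAT mice 27 and 26 and SPF control mouse 7. The GF effect gave 2 genes with voom, among them Fkbp5, and 0 to 1 without 1 mouse, the 1 being Irf4 without GF control mouse 37. Among named genes only Pigr and Ifng, neither past the threshold, changed sign. Pigr gave 0.29 with median centring, 0.067 with quantile normalization and -0.48 to 0.039 without 1 mouse, the positive value being without SPF PAT mouse 21. Ifng gave 0.52 and 0.14 under these scalings and -0.55 to 0.51 without 1 mouse, positive without SPF PAT mouse 26, SPF control mouse 8, GF PAT mouse 42 or GF control mouse 37. The cause was not tested. Low counts limit precision: 111 genes had a mean under 20 normalized counts. No paired analysis was possible because the labels give each mouse a number of its own and none is shared between groups.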

Other observations

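Cfd, the serine protease adipsin made mainly by fat cells, had an interaction past 4 log2 units that did not pass the test, and it was named after its values were seen. Its mean level was 7.10 in SPF control, 8.34 in SPF PAT, 9.38 in GF control and 5.94 in GF PAT mice, 3 in each group. The SD within a group ran from 1.88 in GF control to 4.44 in SPF control mice, and the interaction was 4.67 (SE 3.63, adjusted p = 0.334). Some genes differed between SPF PAT and GF PAT mice without an interaction past the threshold. They were Nfil3, a circadian and immune transcription factor (SPF minus GF 1.89 in control and 1.80 in PAT mice), and the phospholipase gene Pla2g2a (0.65 and 1.17). The others were Tnfrsf17, the plasma cell receptor BCMA (2.65 and 1.67), Tnfsf15, a TNF family ligand (-1.57 and -0.98), and Phlpp2, a phosphatase (-1.21 and -0.89). They too were named after their values were seen.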
